A study of Mus musculus with 20 samples.

Results

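The injured left hemisphere was compared with the uninjured right hemisphere of the same brains in 5 mice that received no peptide. The groups were chosen by their labels, 5 arrays of injured left and 5 arrays of uninjured right hemisphere. The main fit therefore used 10 of the 20 arrays of the series. The mice were adults of the strain C57/Bl6, and each had been sensitised with lipopolysaccharide (LPS) and subjected to hypoxia-ischemia (HI). The other 10 arrays came from mice that also received the peptide IDR1018. Every mouse was exposed to LPS and to HI, so the right hemisphere is a reference from an exposed animal and not from a naive one. Sex, age in days, dose and time of collection are not stated in the labels used here. Brains were frozen on dry ice and total RNA was extracted from the hemispheres, and the 2 arrays of a replicate number carry the same specimen number and are treated as the 2 sides of 1 animal.

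LPS is a component of the bacterial outer membrane that innate immune cells detect through Toll-like receptor 4. In unilateral models of hypoxia-ischemia the blood supply of one side of the brain is reduced and the oxygen in the air is then lowered, so that damage falls mainly on that side while low oxygen and circulating signals reach both. Injured brain is known for an inflammatory and heat shock response. Genes of groups such as cytokine, interferon, glial and heat shock genes were therefore set aside from the ranking here. In all 677 genes were set aside, of which 181 were higher and 31 lower in the injured hemisphere at the threshold given below. The account below concerns the rest of the array: the cell cortex, the nucleolus, growth control, ion transport, synaptic adhesion, gene length and small RNA.

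Values were log2 levels after RMA, so a difference of 1 is a 2-fold change, and levels of different genes cannot be set against each other. Array medians lay between 8.20 and 8.23, correlations between arrays ranged from 0.994 to 0.998, and the median SD between arrays of a side was 0.0817 in the left and 0.0741 in the right hemispheres. The mean of 6573 control probe sets ranged from 7.01 to 7.10 on left arrays and from 7.01 to 7.20 on right arrays; it was higher on the right side in animals 2 to 5 and higher on the left side in animal 1 (7.07 against 7.01). Left arrays carry the array numbers 1 to 10 and right arrays 11 to 20, and hemisphere and array number cannot be told apart. None of the 10 neuronal, 9 astrocyte or 7 oligodendrocyte markers measured lay under the control median, the median level of these control probe sets (6.83), whereas 6 of 10 neutrophil and 5 of 7 lymphocyte markers did.

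Among 19937 genes, 2086 were higher and 2005 were lower in the injured hemisphere at an adjusted p under 0.05 by limma, which is 10.5% and 10.1% of the genes tested and 20.5% in all. These 3 shares are the background against which counts of gene groups are read below. "Rose" and "fell" are used only for genes past this test. The shares include 4492 genes under the control median, and they depended on level. With genes ranked by mean level into 5 classes, 1.81% rose and 2.51% fell in the lowest class. In the highest class 12.4% rose and 16.3% fell, and in the class just below it 16.5% and 15.0%. A list without genes of low level can therefore lie above the background for that reason alone. Most differences were small, with a median of 0.23 log2 units among genes that rose and 0.20 among those that fell. At least 1.5-fold change was reached by 154 genes that rose and by 24 that fell, and at least 2-fold by 45 and 0. With both arrays of an animal left out, between 1185 (without animal 5) and 1810 genes rose and between 1011 (without animal 5) and 1631 fell, so counts in gene groups shrink for that reason too; without animal 4 the numbers were 1202 and 1044, and without animal 2 they were 1480 and 1176. Among the genes named below, the calls of Snord42a, Hrh1, Eif4g3, Hilpda, Ms4a4c, C1ql1, Meg3, Neu4, Rian, Slc8a2 and Noc3l were the least stable, each lost in at least 9 of 21 alternative fits, and those of Ccnd1, Chrm1, Eif4g3, Hilpda, Hrh1, Meg3, Ms4a4c, Nrxn2, Slc8a2 and Mir411 were lost in the fit with a replicate block. In RNA of whole hemispheres, fewer cells of a type and less RNA per cell cannot be told apart.

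Outside the genes set aside, the largest increases were those of Emp1, Gem, Ccn1 and Rgs1, followed by Plek and B3gnt5. Ccn1 and Rgs1 are described further on. The immediate early gene Fos, whose differences are also given further on, was not part of this ranking. Emp1, which encodes an epithelial membrane protein, had levels of 10.63, 10.62, 11.02, 10.86 and 11.05 in the left hemispheres of animals 1 to 5 and of 8.62, 8.80, 9.04, 8.64 and 8.70 in the right hemispheres. The lowest left array lay well above the highest right array, and the difference was 2.07 ± 0.10 (log2, SE, n = 5 per side, limma adjusted p = 1.3e-06), a 4.21-fold increase. Gem, a small GTPase that restrains calcium channels, had left levels of 8.87, 8.48, 9.49, 8.81 and 9.38 and right levels of 7.31, 7.42, 7.44, 7.26 and 7.25. The left side was higher in every animal, most in animals 3 and 5, and the difference was 1.67 ± 0.16 (adjusted p = 9.19e-05). Plek, which encodes pleckstrin, a protein of platelets and leukocytes, had left levels of 10.32, 10.18, 10.60, 10.36 and 10.62 against right levels of 9.10, 8.99, 9.12, 9.06 and 8.99. Its sides did not overlap, with a difference of 1.36 ± 0.08 (adjusted p = 2.63e-06). From here on a value with ± is a log2 difference, left minus right, with its SE from limma and n = 5 per side.

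**Figure D1:**
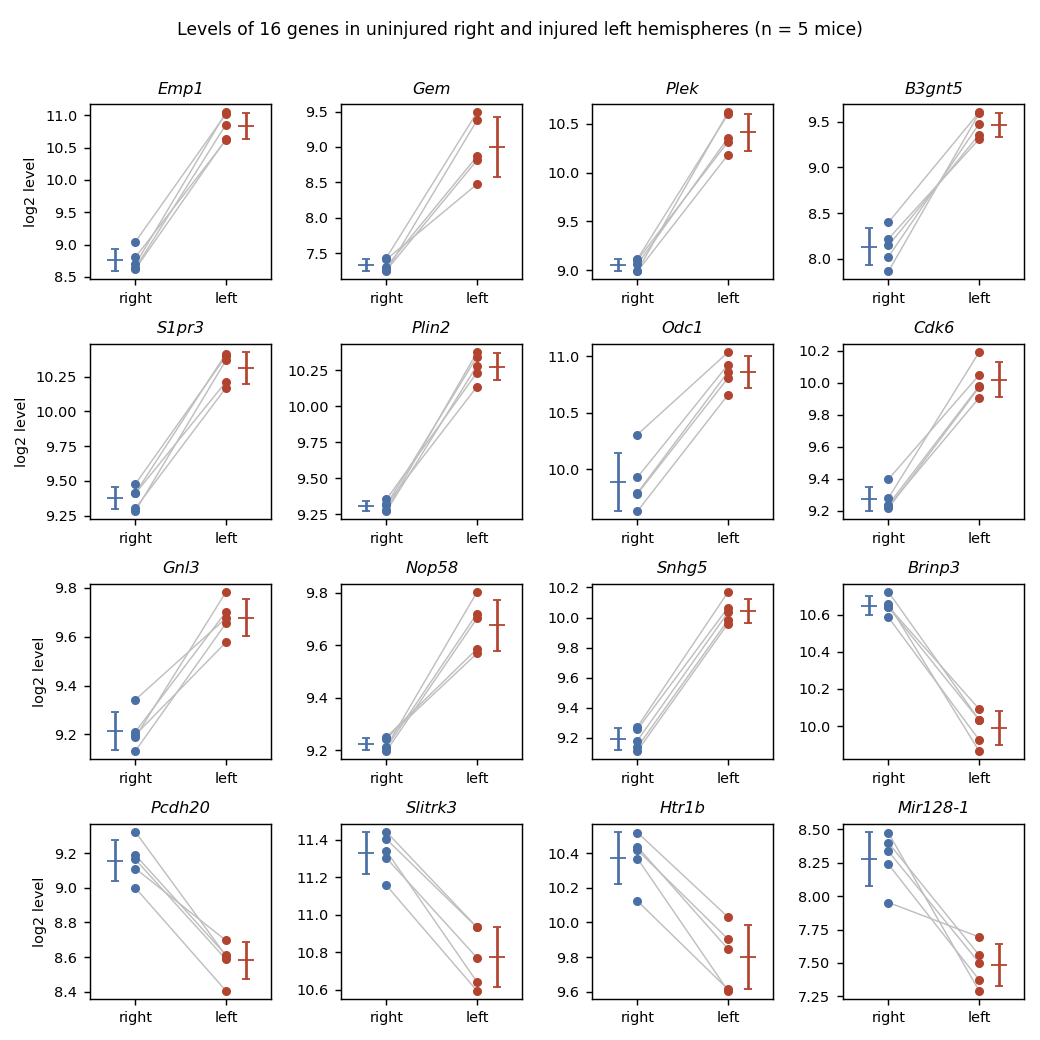
Log2 level (vertical axis) of 16 genes in the right and left hemispheres of 5 mice, with a grey line joining the 2 sides of an animal and bars for the mean and SD. The first 11 genes lie higher and the last 5 lower on the left side in all 5 animals, by 2.07 for Emp1 and by 0.80 for Mir128-1.

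Several enzymes and receptors followed. B3gnt5, a glycosyltransferase that starts the lacto-series glycolipids, had left levels of 9.31, 9.36, 9.60, 9.48 and 9.59 and right levels of 8.22, 8.15, 8.40, 8.02 and 7.86, without overlap (1.34 ± 0.09). S1pr3, a receptor for sphingosine 1-phosphate, had left levels of 10.17, 10.40, 10.21, 10.42 and 10.37 and right levels of 9.30, 9.48, 9.41, 9.41 and 9.28. This rise of 0.94 ± 0.06 stood beside 0.24 ± 0.06 for S1pr1 and 0.17 ± 0.04 for S1pr2. Plin2, which coats lipid droplets, had left levels of 10.14, 10.34, 10.28, 10.23 and 10.37 and right levels of 9.32, 9.32, 9.27, 9.35 and 9.28, and the right sides were the more uniform (0.96 ± 0.05). Odc1, the rate-limiting enzyme of polyamine synthesis, had left levels of 10.66, 10.81, 11.03, 10.86 and 10.92 and right levels of 9.63, 9.78, 10.31, 9.79 and 9.93. Animal 3 was highest on both sides, and the difference of 0.97 ± 0.11 kept its sign in all 5 animals. Plau, the urokinase-type plasminogen activator, rose by 1.25 ± 0.14, the uridine phosphorylase Upp1 by 0.92 ± 0.11, the cytochrome Cyp1b1 by 0.94 ± 0.15 and the lysosomal peptide transporter Slc15a3 by 0.87 ± 0.10. Of 87 measured cytochromes P450 Cyp1b1 alone rose (1.15%), beside 6 that fell (6.9%), and 55 of the 87 lay under the control median.

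The list of actin, annexin and membrane-cortex genes held a large share of increases. Of 52 measured members 29 rose, or 55.8%, and 2 fell, and the median difference was 0.22 against -0.02 over all genes. Annexins, which bind membrane phospholipids in the presence of calcium, contributed Anxa2 (0.99 ± 0.09) and Anxa5 (0.34 ± 0.06), and their S100 partners contributed S100a6 (0.63 ± 0.05). Anxa2 had left levels of 9.87, 10.11, 10.36, 10.27 and 10.44 and right levels of 9.13, 9.32, 9.26, 9.26 and 9.15, so that no left array reached down to a right one. Linkers between actin and the membrane rose as well, with moesin (Msn, 0.45 ± 0.06), ezrin (Ezr, 0.35 ± 0.05) and vinculin (Vcl, 0.30 ± 0.06), as did the hyaluronan receptor Cd44 (0.81 ± 0.08), the galectin Lgals3 (1.00 ± 0.06), the unconventional myosin Myo1e (0.79 ± 0.07) and the crosslinker Flnc (0.70 ± 0.06). The 2 members that fell were the smooth muscle light chain Myl9 (-0.34 ± 0.05) and Parva (-0.14 ± 0.03), which links integrins to actin. The fibronectin receptor subunit Itga5 rose by 0.57 ± 0.06. Tubulins differed from this: Tubb6 rose by 0.93 ± 0.07, while 9 of the 41 measured genes of tubulins and microtubule proteins fell, among them the neuronal Tubb3 (-0.39 ± 0.05).

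These cortex genes are expressed by several cell types, and markers of those types were measured on the same arrays. Of 7 endothelial markers 1 rose, Pecam1 (0.36 ± 0.07), and 1 fell, the transporter Slco1a4 (-0.53 ± 0.06), with mean levels of the list from 9.44 to 9.71 on the left and from 9.43 to 9.62 on the right. Of 6 blood monocyte markers 2 rose, Chil3 (0.32 ± 0.07) and Ms4a4c (0.29 ± 0.09); both lay under the control median on all 10 arrays, as did the mean of 2 of the other 4 markers, and neither entered the fit of probe sets above it. The list's mean level ranged from 6.54 to 6.66 on the left and from 6.39 to 6.59 on the right. Of 10 neutrophil markers 0 passed the test by limma and 2 had an unadjusted p under 0.05, with S100a8 at 0.26 ± 0.11, and the mean level of the list was 6.22 to 6.47 on the left and 6.23 to 6.28 on the right. Of 7 microglial markers 4 fell, with Tmem119 at -0.52 ± 0.08 and P2ry12 at -0.47 ± 0.06, and the list's mean level was 8.39 to 8.51 on the left and 8.55 to 8.76 on the right. The part of these cells in the increases was not tested.

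Promoter sequences of the genes with the largest increases are shown because the letters of an AP-1 site, TGANTCA, which is bound by FOS and JUN proteins, stood in more of them than in promoters at large. The window covered 300 bases around the start of a gene in RefSeq on GRCm38.p6, most of them before it, and the first window listed was taken for each of 15562 genes. The letters were found on either strand in 6.97% of all these promoters, in 6.5% of those of genes that rose and in 4.88% of those of genes that fell. Among the 119 promoters of genes that rose at least 1.5-fold they were found in 23, or 19.3%, and these include chemokine and interferon-induced genes that were set aside above. The letters of a TATA box, TATAAA, followed the same order, with 12.1% of all promoters, 8.61% of those of genes that rose and 23.5% of those of genes that rose at least 1.5-fold. A match is a description of the letters and not of binding. The 3 largest increases of the ranking with such letters in the window were Emp1, Ctla2a, which encodes a cysteine protease inhibitor and rose by 1.15 ± 0.14, and Anxa2, printed here 5′ to 3′ on the strand of the gene with the AP-1 letters in capitals.
Emp1, chr6:135362681-135362980, plus strand: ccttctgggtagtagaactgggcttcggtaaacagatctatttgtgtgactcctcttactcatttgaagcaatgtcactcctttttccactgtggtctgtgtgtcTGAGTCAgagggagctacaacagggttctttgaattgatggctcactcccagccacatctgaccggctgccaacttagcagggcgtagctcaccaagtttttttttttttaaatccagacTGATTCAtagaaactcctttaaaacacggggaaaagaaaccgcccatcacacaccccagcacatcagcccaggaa
Ctla2a, chr13:60936576-60936875, minus strand: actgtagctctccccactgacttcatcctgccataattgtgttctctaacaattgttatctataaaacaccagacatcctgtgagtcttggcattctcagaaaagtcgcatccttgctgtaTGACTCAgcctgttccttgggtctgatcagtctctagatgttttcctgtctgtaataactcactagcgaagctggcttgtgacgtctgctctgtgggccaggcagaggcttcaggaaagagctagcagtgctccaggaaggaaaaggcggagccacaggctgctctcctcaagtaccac
Anxa2, chr9:69453433-69453732, plus strand: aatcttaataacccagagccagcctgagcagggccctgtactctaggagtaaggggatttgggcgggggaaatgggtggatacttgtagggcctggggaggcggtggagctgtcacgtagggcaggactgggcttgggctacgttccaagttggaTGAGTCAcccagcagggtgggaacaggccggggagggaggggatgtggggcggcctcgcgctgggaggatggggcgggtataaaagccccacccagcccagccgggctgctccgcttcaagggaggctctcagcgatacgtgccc
Emp1 holds 2 such matches and the other two genes hold 1 each. Both Emp1 and Ctla2a have 2 windows listed in RefSeq, of which the first is shown.

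A large share of the genes that act in the nucleolus were higher in the injured hemisphere, by small steps. Ribosomes are assembled in the nucleolus, where RNA polymerase I transcribes the ribosomal RNA and small nucleolar ribonucleoproteins modify it. Of 48 measured genes of ribosome biogenesis and RNA polymerase I, 21 rose and 0 fell by limma, and 43 had a positive difference (median 0.14). At an unadjusted p under 0.05, 33 of the 48 were higher and 1 was lower. Over all 19937 genes, 8823 had a positive difference. Gnl3, which encodes nucleostemin, had left levels of 9.58, 9.70, 9.68, 9.78 and 9.65 and right levels of 9.20, 9.21, 9.34, 9.19 and 9.13 (0.46 ± 0.05, adjusted p = 0.000155). Nop58, a core protein of box C/D small nucleolar ribonucleoproteins, had left levels of 9.57, 9.72, 9.59, 9.80 and 9.70 and right levels between 9.20 and 9.25, a difference of 0.45 ± 0.05 (adjusted p = 0.000142). For both genes the lowest left array lay above the highest right array. The RNA helicase Ddx21 rose by 0.38 ± 0.05, the assembly factor Tsr1 by 0.34 ± 0.05 and the polymerase subunit Polr1c by 0.31 ± 0.04, and Rrn3, which recruits RNA polymerase I to its promoter, by 0.18 ± 0.04. Nucleolin (Ncl, 0.19 ± 0.04) and fibrillarin (Fbl, 0.17 ± 0.04) rose less. At least 1.2-fold change was reached by 7 of the 21. Without animal 4 or without animal 5 the count was 11, and with each array's control mean as a covariate (the control covariate below) it was 13.

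The letters of an ETS site, CCGGAAG, set this list apart from promoters at large. They stood on either strand in 12.5% of all promoters, in 19.7% of those of genes that rose, in 10.7% of those of genes that fell and in 16 of the 41 promoters listed for ribosome biogenesis genes, or 39.0%. The E-box CACGTG stood in 8.4% of all promoters and in 19.5% of those of the list, and none of the 41 held the AP-1 letters. The letters of a GC box, GGGCGG, stood in 49.9% of all promoters and in 68.0% of those of genes that rose, whose median GC content was 62.0% against 57.7% over all. Promoters of genes that fell had a median GC content of 59.7%. No test was made of these shares. The 3 members with the largest increase among those holding the ETS letters were Tsr1, Noc3l (0.32 ± 0.09) and Polr1c, shown with these letters in capitals.
Tsr1, chr11:74897830-74898129, plus strand: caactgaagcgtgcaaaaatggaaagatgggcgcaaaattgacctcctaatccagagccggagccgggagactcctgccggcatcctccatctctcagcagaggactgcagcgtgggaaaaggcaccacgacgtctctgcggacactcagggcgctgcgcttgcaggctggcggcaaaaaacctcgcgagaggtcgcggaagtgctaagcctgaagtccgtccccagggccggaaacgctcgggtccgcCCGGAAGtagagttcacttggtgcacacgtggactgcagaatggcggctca
Noc3l, chr19:38819188-38819487, minus strand: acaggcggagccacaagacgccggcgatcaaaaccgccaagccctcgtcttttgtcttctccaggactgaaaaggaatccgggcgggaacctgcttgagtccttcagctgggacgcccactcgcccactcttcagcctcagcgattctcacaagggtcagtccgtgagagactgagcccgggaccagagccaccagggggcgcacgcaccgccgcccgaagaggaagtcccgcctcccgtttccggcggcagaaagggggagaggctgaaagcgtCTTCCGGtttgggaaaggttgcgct
Polr1c, chr17:46247996-46248295, minus strand: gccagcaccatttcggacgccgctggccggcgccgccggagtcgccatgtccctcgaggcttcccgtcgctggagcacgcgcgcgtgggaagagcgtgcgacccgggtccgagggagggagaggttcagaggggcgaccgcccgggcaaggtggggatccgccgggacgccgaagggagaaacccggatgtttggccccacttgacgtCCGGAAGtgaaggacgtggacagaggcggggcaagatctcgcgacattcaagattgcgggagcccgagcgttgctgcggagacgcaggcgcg
In Tsr1 the match starts at the base just before the start of the gene, in Noc3l it lies after the start and in Polr1c before it. The other motifs searched on both strands, with their share of all promoters, were CCAAT (38.3%), GGAATG for TEAD (13.1%), TGATGNAA for C/EBP-ATF (3.17%), TGACGTCA for CREB (2.5%) and TTCCNGGAA for STAT (1.2%), and by name an NRF1 site (7.27%), an interferon-stimulated response element (3.32%), a CArG box (1.43%), a heat shock element (0.418%) and a kappaB site (0.418%). Matches of different motifs may overlap, as the ETS letters can with those of STAT. Among genes that rose, CCAAT stood in 37.3% and the TEAD letters in 9.69% of promoters, and among those that rose at least 1.5-fold the interferon-stimulated element stood in 11.8%.

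Small nucleolar RNA and its host genes moved in the same direction. Of 54 measured small nucleolar RNA genes 13 rose and 1 fell, Snord42a (-0.14 ± 0.05), with a median of 0.12; 10 of the 54 lay under the control median. Snora73b, an H/ACA RNA, had left levels of 9.81, 9.66, 10.02, 9.53 and 10.51 and right levels of 9.35, 8.97, 9.26, 9.16 and 9.13. The left array of animal 5 was far above the others, and the difference was 0.73 ± 0.15 (adjusted p = 0.00709). Snord118, the U8 RNA needed for large subunit processing, rose by 0.60 ± 0.10 and Snord104 by 0.55 ± 0.10. The host gene Snhg5 rose from 9.11, 9.18, 9.26, 9.27 and 9.14 on the right to 9.96, 10.03, 10.07, 10.17 and 9.98 on the left, and its difference ran only from 0.81 to 0.90 between animals (0.85 ± 0.05). Gas5, another host gene, rose by 0.15 ± 0.04. The count of 13 became 7 without animal 3, 8 without animal 5 and 8 with the control covariate.

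Lists of translation, secretion and splicing genes leaned the same way, with 35.1%, 30.2% and 27.8% higher against 10.5% over all genes. Of 37 genes of translation initiation and elongation 13 rose and 2 fell. They include the cap-binding protein Eif4e (0.15 ± 0.04) and its inhibitor Eif4ebp1 (0.62 ± 0.05), which act against each other, and the factors Eif3e (0.33 ± 0.05) and Eif1a (0.31 ± 0.04), while the paralogues Eif4e3 (-0.17 ± 0.04) and Eif4g3 (-0.12 ± 0.03) fell. The 13 became 5 without animal 2, 4 or 5, 8 without the right array of animal 4 or of animal 5, and 7 with the control covariate. Of 20 aminoacyl-tRNA synthetases 7 rose and 1 fell, but only 2 rose without animal 4 or animal 5 and 3 with the control covariate. Of 77 mitochondrial ribosomal protein genes 14 rose (18.2%) and 4 fell (5.19%), with Mrps6 at 0.34 ± 0.05, and 0 lay under the control median. The share that rose was near that of genes of high level, 12.4% in the highest level class and 16.5% in the class just below it. Only 1 of the 14 changed at least 1.2-fold, and the 14 became 6 without animal 4, 9 without animal 3 and 7 with the control covariate. Of 53 genes of endoplasmic reticulum translocation and secretory traffic 16 rose, led by the retrieval receptor Kdelr3 (0.56 ± 0.09), and 1 fell. That count was 7 without animal 5, 8 without animal 4, 10 without animal 1, 10 without the right array of animal 4 or of animal 5, and 10 with the control covariate. Of 54 pre-mRNA splicing factors 15 rose and 4 fell, with 10 increases in the fit with a replicate block, after centring and without animal 2, 4 or 5, and with 2 decreases without animal 4 or 5, without the left array of either, without the right array of animal 3, 4 or 5, and with the control covariate. Of 45 SR and RNA-binding motif genes 15 rose and 0 fell, and Srsf3, a splicing and export factor, had left levels of 12.59, 12.62, 12.64, 12.67 and 12.57 against right levels of 12.17, 12.18, 12.31, 12.29 and 12.25 (0.38 ± 0.04); without animal 2 or 5 the count was 9. Among 49 nuclear pore and transport genes 13 rose, including the exportin Xpo1 (0.35 ± 0.05) and the pore protein Nup54 (0.42 ± 0.06), and 6 fell; 8, 6 and 7 rose without animals 2, 4 and 5. The 6 decreases were the less stable, with 2 in the fit with a replicate block, 0 with the control covariate and 1 to 3 in the fits that left out an animal.

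**Figure D2:**
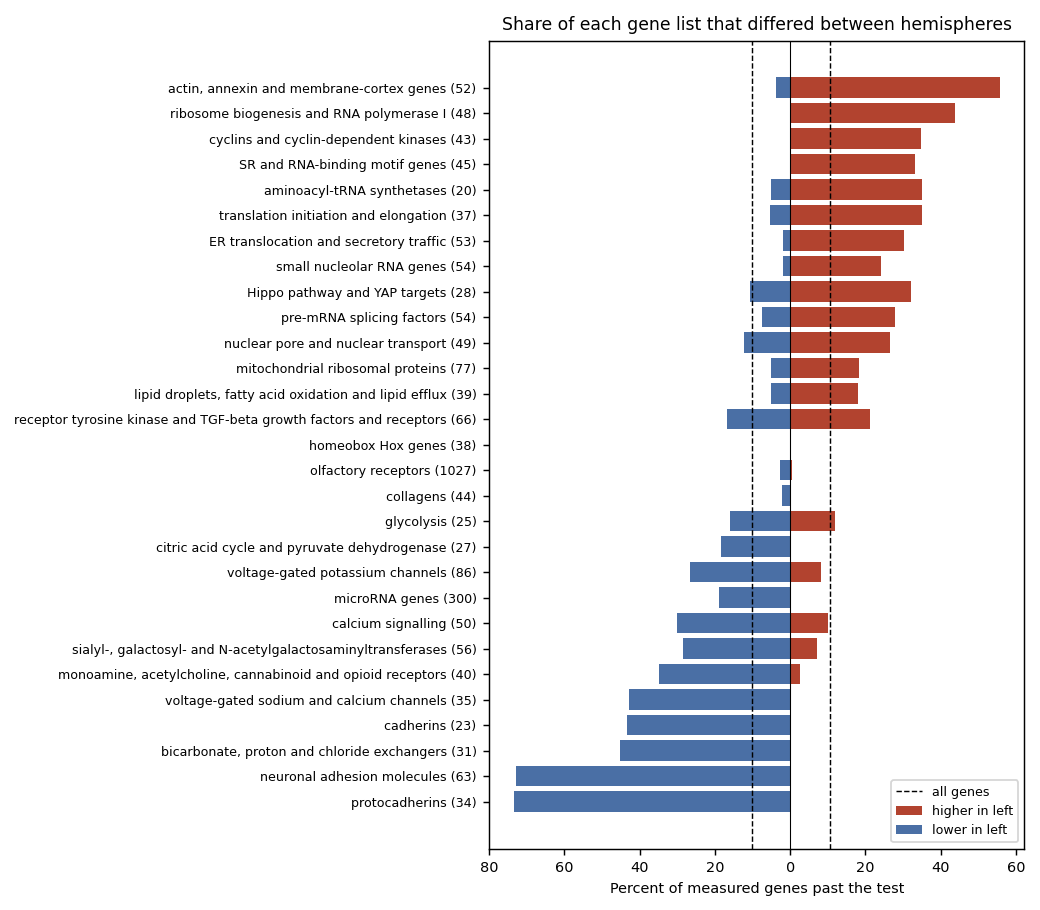
Percent of the measured genes of 29 lists and families (number in brackets) that were higher (red, to the right) or lower (blue, to the left) in the left hemisphere at an adjusted p under 0.05 by limma, with dashed lines at 10.5% and 10.1%, the shares over all genes. Membrane-cortex and ribosome biogenesis genes lie at one end, with 55.8% and 43.8% higher, and protocadherins and neuronal adhesion genes at the other, with 73.5% and 73.0% lower.

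Growth factors and their receptors changed in both directions. Among 66 genes of receptor tyrosine kinase and TGF-beta growth factors and receptors 14 rose and 11 fell, or 21.2% and 16.7%. Over all genes the shares were 10.5% and 10.1%, and in the highest level class they were 12.4% and 16.3%. Of the 66, 1 lay under the control median, and the share that fell was near that of the highest level class. The increases in this list held the EGF receptor ligand Hbegf (0.60 ± 0.07), Fgf2 (0.55 ± 0.06), Tgfb1 (0.43 ± 0.08) and Pdgfb (0.37 ± 0.05), together with the receptors Tgfbr1 (0.34 ± 0.04) and Egfr (0.14 ± 0.04). The decreases held the ligand subunit Inhba (-0.37 ± 0.06), the FGF family member Fgf14 (-0.27 ± 0.05), which acts inside neurons, and the receptors Fgfr3, Pdgfra, Erbb4 (-0.28 ± 0.06) and Pdgfrb (-0.22 ± 0.04). Fgfr3, a receptor of astrocytes, had left levels of 10.68, 10.47, 10.56, 10.39 and 10.55 and right levels of 11.16, 10.92, 11.07, 11.02 and 11.10, without overlap (-0.52 ± 0.06). Pdgfra, which marks oligodendrocyte precursors, fell by 0.45 ± 0.05 together with 3 of the other 5 markers of these cells that were measured, Cspg4 (-0.40 ± 0.03), Neu4 (-0.29 ± 0.09) and C1ql1 (-0.24 ± 0.07), and the mean level of the list was 9.87 to 10.10 on the left and 10.16 to 10.25 on the right. Of 7 markers of mature oligodendrocytes 0 passed the test by limma and 0 had an unadjusted p under 0.05, with Mag, at -0.22 ± 0.14, the farthest from 0. The count of 11 decreases became 7 with the control covariate.

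The cell cycle and the Hippo pathway, which couples cell shape to growth, gave further increases. Of 43 cyclins and cyclin-dependent kinases 15 rose and 0 fell. Cdk6, which acts with D cyclins at the start of the cycle, had left levels of 9.97, 9.91, 10.05, 9.98 and 10.19 and right levels of 9.22, 9.23, 9.40, 9.24 and 9.28 (0.75 ± 0.06), and the RNA-processing cyclin Ccnl1 rose by 0.46 ± 0.05 and the D cyclin Ccnd1 by 0.23 ± 0.06. Only Cdk6 and Ccnl1 among the 15 changed at least 1.2-fold, and the count was 8 with a replicate block, 9 after centring of the arrays, 6 with the control covariate, and 7, 7, 5 and 4 without animals 2, 3, 4 and 5. Single arrays moved it too: it was 9, 8 and 9 without the left arrays of animals 3, 4 and 5 and 7 and 8 without the right arrays of animals 4 and 5. In the Hippo list 9 of 28 genes rose and 3 fell. The YAP partner Tead1 (0.39 ± 0.06), the co-activator TAZ (Wwtr1, 0.41 ± 0.05) and the kinase adaptors Mob1a (0.31 ± 0.04) and Mob1b (0.31 ± 0.05) rose, and the merlin gene Nf2 fell (-0.13 ± 0.03). The 9 increases became 6 at the fewest, and the 3 decreases became 0 without animal 3 or 4 and 1 without animal 1. The RGS proteins Rgs1 and Rgs16, which shorten G protein signals, rose by 1.41 ± 0.14 and 0.88 ± 0.05; 5 right arrays and 1 left array of Rgs1 lay under the control median.

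Genes of energy metabolism moved in both directions. Of 25 genes in the glycolysis list 3 rose and 4 fell, or 12.0% and 16.0%, against 10.5% and 10.1% over all genes. Of the 25, 0 lay under the control median, whereas the shares over all genes include genes under it. This list also holds regulators of pyruvate dehydrogenase, and Pdk4, 1 of the 3 that rose, is such a regulator. Of 27 genes of the citric acid cycle and pyruvate dehydrogenase 0 rose and 5 fell by limma, led by Me3, Pcx and Fh1. At an unadjusted p under 0.05, 0 of these 27 were higher and 8 lower. The 4 decreases of the glycolysis list became 1 without animal 4 or 5 and 2 without animal 2 or 3. They also became 2 without the right array of animal 4 and 2 with the control covariate. The 5 decreases of the citric acid cycle list became 3 without animal 2 or 5. Pdk4, a kinase that inhibits pyruvate dehydrogenase, had left levels of 9.07, 8.70, 9.37, 9.02 and 9.38 and right levels of 8.41, 8.12, 8.86, 8.28 and 8.50, which overlap although the left side was higher in each animal (0.68 ± 0.15). Of 39 genes of lipid droplets, fatty acid oxidation and lipid efflux 7 rose (17.9%) and 2 fell (5.13%). Besides Plin2 the increases held Ch25h, Angptl4, Lpl and Hilpda. Exchangers that set intracellular pH, chloride and calcium fell. Among 31 genes of bicarbonate, proton and chloride exchange and carbonic anhydrases 0 rose and 14 fell (median -0.15), including the carbonic anhydrase Car4 (-0.39 ± 0.07), the sodium-proton exchanger Slc9a2 (-0.37 ± 0.07) and all 3 sodium-calcium exchangers, Slc8a1 (-0.29 ± 0.06), Slc8a2 (-0.19 ± 0.05) and Slc8a3 (-0.18 ± 0.05). Car4 had left levels of 10.35, 10.27, 10.45, 10.32 and 10.21 and right levels of 10.86, 10.78, 10.51, 10.66 and 10.72, and animal 3 showed almost no difference (-0.06). The count of 14 became 8 without animal 2, 4 or 5. In the calcium signalling list 15 of 50 genes fell and 5 rose, and 7 fell with the control covariate, 9, 8, 7 and 7 without animals 1, 2, 4 and 5, and 9 and 8 without the right arrays of animals 4 and 5. The plasma membrane calcium pumps in it fell, with Atp2b1 (-0.25 ± 0.04), Atp2b3 (-0.25 ± 0.03) and Atp2b2 (-0.21 ± 0.04), whereas the calcium-regulated factors Nfatc2 (0.47 ± 0.06) and Nfatc1 (0.31 ± 0.05) and the calcineurin inhibitor Rcan1 (0.30 ± 0.04) rose.

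Molecules that hold synapses and neurites together were lower almost throughout. Neurexins, neuroligins, teneurins, contactins and leucine-rich repeat proteins bridge the synaptic cleft, and protocadherins give neurons a surface identity. Of 63 measured neuronal adhesion genes 46 fell and 0 rose by limma, or 51 and 0 at an unadjusted p under 0.05. Of the 63, 61 had a negative difference and 42 did not overlap between the sides, with a median of -0.21. Over all 19937 genes, 11114 had a negative difference and 3530 did not overlap between the sides. Pcdh20 had left levels of 8.61, 8.59, 8.40, 8.70 and 8.61 and right levels of 9.32, 9.16, 9.00, 9.11 and 9.19, and the highest left array stayed below the lowest right array (-0.58 ± 0.06, adjusted p = 0.000233). Slitrk3, a postsynaptic organiser of inhibitory synapses, had left levels of 10.93, 10.93, 10.60, 10.77 and 10.64 and right levels of 11.40, 11.44, 11.16, 11.30 and 11.34 (-0.55 ± 0.08, adjusted p = 0.000726). Lrrtm3, a partner of neurexins at excitatory synapses, had left levels of 11.12, 11.18, 11.06, 11.14 and 11.09 and right levels of 11.62, 11.68, 11.43, 11.57 and 11.56 (-0.46 ± 0.05, adjusted p = 0.000145). Neither gene had overlapping sides. Several subfamilies held more than 1 such gene. Of 6 measured Slitrk genes 5 fell, from -0.31 ± 0.06 for Slitrk4 to the value of Slitrk3, and Slitrk6 (-0.19 ± 0.21) did not pass the test. The teneurins Tenm1 (-0.31 ± 0.05), Tenm2 (-0.37 ± 0.05), Tenm3 (-0.32 ± 0.04) and Tenm4 (-0.35 ± 0.04) fell, as did Nlgn1 (-0.38 ± 0.05), Nlgn2 (-0.22 ± 0.03), Nlgn3 (-0.27 ± 0.04), Nrxn2 (-0.12 ± 0.03) and Nrxn3 (-0.27 ± 0.04).

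Of 34 protocadherins 25 fell and 0 rose (median -0.21), among them 16 of the 22 measured genes of the clustered beta group, with Pcdhb12 first (-0.44 ± 0.06). Of 23 cadherins 10 fell and 0 rose, led by Cdh10 (-0.49 ± 0.06) and Cdh9 (-0.48 ± 0.08). The 46 neuronal adhesion genes became 34 without animal 4, 42 with a replicate block and 30 with the control covariate, and the 25 protocadherins became 17 without animal 2, 25 with a replicate block and 13 with the control covariate. General neuronal markers moved less. Of 10 such markers 2 fell, Tubb3 and Meg3 (-0.22 ± 0.06), and Snap25 (-0.09 ± 0.03), Syt1 (-0.08 ± 0.03) and Rbfox3 (-0.07 ± 0.04) did not pass the test. Of the 10, 9 had a negative difference, and 5 were lower and 0 higher at an unadjusted p under 0.05 by limma. The mean level of the list was 12.36 to 12.41 on the left and 12.47 to 12.51 on the right. This difference is smaller than the median of the adhesion list, but the sides do not overlap. The part of neuron number in the decrease of adhesion genes was not tested.

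**Figure D3:**
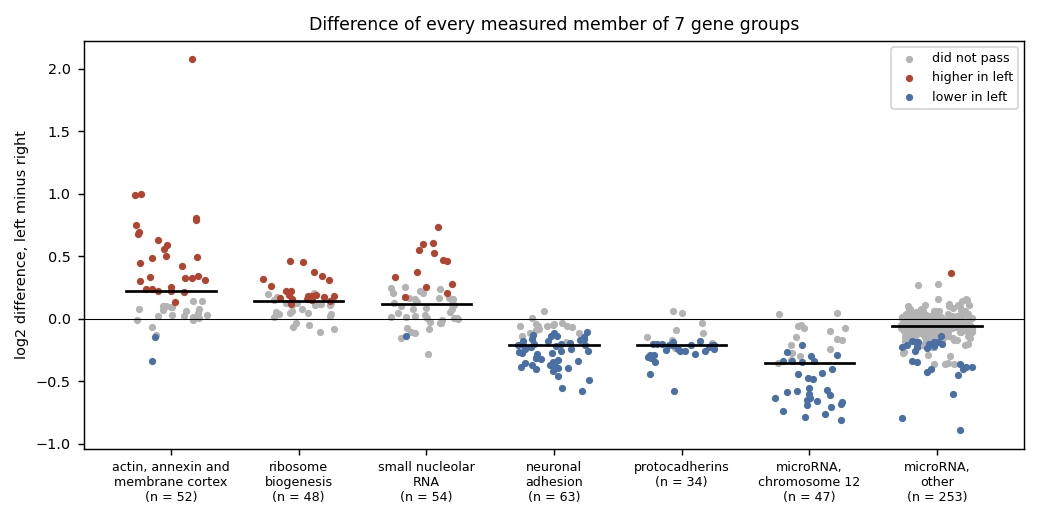
Log2 difference, left minus right, of every measured member of 7 gene groups, red or blue where the gene passed the test by limma and grey where it did not, with the median as a black bar. Medians lie at 0.22 for membrane-cortex genes, 0.14 for ribosome biogenesis, -0.21 for neuronal adhesion genes and -0.35 for microRNA genes of chromosome 12.

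Channels and transmitter receptors of neurons also fell, in smaller shares. Of 35 voltage-gated sodium and calcium channel genes 15 fell and 0 rose, led by the sodium channel subunit Scn2b. It had left levels of 9.82, 9.68, 9.63, 9.66 and 9.68 and right levels of 10.19, 10.14, 9.96, 10.12 and 10.10, without overlap (-0.41 ± 0.05). The count of 15 was 7, 9 and 9 without animals 2, 4 and 5 and 8 with the control covariate. Of 86 potassium channel genes 23 fell and 7 rose, with the calcium-activated Kcnn2 (-0.45 ± 0.05), Kcnv1 (-0.44 ± 0.08) and Kcna4 (-0.44 ± 0.06) at one end and Kcne4 (0.36 ± 0.09) and Kcnf1 (0.33 ± 0.05) at the other; without animal 4, 14 fell and 4 rose, and without animal 5, 15 and 4. Among 40 receptors for monoamines, acetylcholine, cannabinoids and opioids 14 fell and 1 rose, the histamine receptor Hrh1 (0.13 ± 0.04). Htr1b, an autoreceptor for serotonin, had left levels of 10.03, 9.90, 9.61, 9.85 and 9.60 and right levels of 10.52, 10.42, 10.12, 10.44 and 10.37 (-0.57 ± 0.09), and the sides did not overlap. Htr2a (-0.42 ± 0.07), Htr1a (-0.36 ± 0.05), Htr2c (-0.31 ± 0.05), the muscarinic receptors Chrm5 (-0.33 ± 0.08), Chrm3 (-0.26 ± 0.05) and Chrm1 (-0.20 ± 0.05) and the dopamine receptor Drd2 (-0.45 ± 0.09) fell with it. Of 13 striatal markers, Drd2 among them, 9 fell, and their mean level was 9.36 to 9.70 on the left and 9.86 to 10.02 on the right. Markers of other regions fell too, with 5 of 13 for hippocampus, 3 of 10 for upper and 2 of 13 for deep cortical layers, and 3 of 12 for cerebellum. In these lists 0 rose, and of 8 olfactory bulb markers 1 rose and 0 fell. The part of the striatum or of other regions in the decreases of receptors was not tested. The count of 14 receptors was 7, 7, 9, 8 and 8 without animals 1 to 5, 9 without the left array of animal 4, 9 without the right array of animal 5 and 8 with the control covariate. Of 56 enzymes that build sialic acid and galactose chains on proteins and lipids 16 fell and 4 rose, from Galntl6 (-0.46 ± 0.07) and St8sia4 (-0.36 ± 0.08), a polysialyltransferase of neural cell adhesion molecule, to St3gal1 (0.41 ± 0.06); 10 and 9 fell without animals 2 and 5, with 2 that rose in each case.

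Decreases were concentrated in genes of great length, a property that no list used. Lengths from RefSeq were set against the calls for 14696 protein-coding genes whose mean lay above the control median. Of 504 genes over 300 kb 224 fell, or 44.4%, and 13 rose, or 2.58%, with a median difference of -0.12. Genes of 100 to 300 kb fell in 16.9% of 1613 cases, and the shorter classes in 9.46% (under 10 kb), 10.7% and 10.9%. The increases were spread the other way, with 13.1%, 14.8%, 14.2% and 10.3% in the classes from under 10 kb to 100 to 300 kb. In each animal the median over the longest class was negative, at -0.07 in animal 1, -0.15 in animal 2, -0.15 in animal 3, -0.11 in animal 4 and -0.12 in animal 5, whereas the medians over genes under 10 kb ran from -0.02 to 0.02. In animal 1, whose control probe sets were higher on the left, it was the smallest. In 5 animals with IDR1018 the same medians were -0.05, -0.15, -0.17, -0.12 and -0.12. Otherwise the arrays of these animals entered only the alternative fit with all 4 groups.

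**Figure D4:**
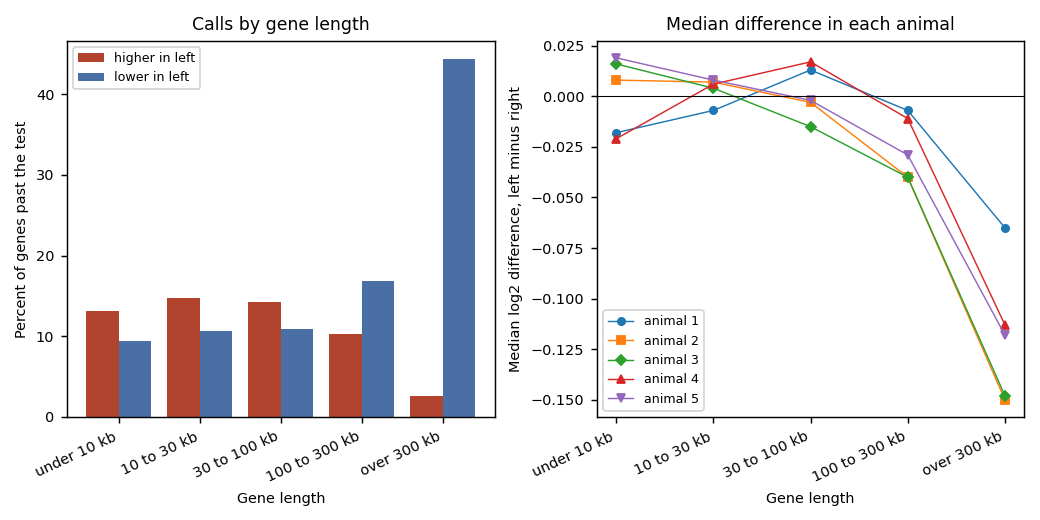
Left, percent of protein-coding genes in 5 length classes that were higher (red) or lower (blue) in the left hemisphere at an adjusted p under 0.05 by limma. Right, the median log2 difference, left minus right, of each class in each of the 5 animals. The class over 300 kb stands at 44.4% lower and 2.58% higher, and its median is below 0 in all 5 animals.

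Long genes are often neuronal and often encode adhesion molecules, so the 2 properties were set side by side. Without the adhesion, protocadherin and cadherin lists 198 of 470 genes over 300 kb fell, or 42.1%. Among 44 genes of those lists that are at most 30 kb long, 29 fell, or 65.9%, against 9.46% of all genes under 10 kb and 10.7% of those of 10 to 30 kb. Of 19 voltage-gated channel genes over 300 kb 12 fell, and of 18 under 10 kb 2 fell. The share of the longest class that fell was 49.9% among genes with a mean level above the median of the 14696 and 32.3% among those below it. Over all 14696 genes the correlation of the difference with the logarithm of length was weak (Pearson -0.112, Spearman -0.08), since genes up to 100 kb showed no trend; all genes share the same 10 arrays and are not independent replicates.

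Of 300 microRNA genes measured, 57 fell and 1 rose. MicroRNAs are short RNAs that bind messenger RNAs through their seed, bases 2 to 8, and lower their output. The array interrogates the gene and not a mature arm, so both arms are given where RefSeq lists them. The 6 largest decreases among microRNA genes with 1 sign in all 5 animals are shown with the seed in capitals, 5′ to 3′, because the seed sets which messenger RNAs an arm can pair with.
Mir421, miR-421-5p: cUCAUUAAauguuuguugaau
Mir128-1, miR-128-3p: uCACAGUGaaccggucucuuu
Mir128-1, miR-128-1-5p: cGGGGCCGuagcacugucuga
Mir376b, miR-376b-5p: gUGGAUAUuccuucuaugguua
Mir376b, miR-376b-3p: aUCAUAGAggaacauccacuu
Mir541, miR-541-5p: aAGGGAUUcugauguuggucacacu
Mir541, miR-541-3p: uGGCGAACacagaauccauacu
Mir539, miR-539-5p: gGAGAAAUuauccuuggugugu
Mir154, miR-154-5p: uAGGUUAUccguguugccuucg
Mir154, miR-154-3p: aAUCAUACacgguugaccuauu
Mir379 (-0.81 ± 0.16, under the control median on all 10 arrays), Mir329 (-0.76 ± 0.14) and Mir411 (-0.70 ± 0.18) fell by more than some of these, but each was higher on the left in 1 animal. Mir421 lies on chromosome X, Mir128-1 on chromosome 1 and the other 4 on chromosome 12, and no 2 of these 10 arms share a seed. Of the 57 genes named Mir that fell, 55 have a mature sequence listed, and among their 100 arms 2 seeds occur in more than 1 gene: ACACACC in miR-329-3p and miR-362-3p, and AUGUAAC in miR-379-3p and miR-411-3p.

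Mir128-1, a microRNA abundant in neurons, had left levels of 7.69, 7.37, 7.29, 7.50 and 7.56 and right levels of 7.95, 8.24, 8.47, 8.34 and 8.40. The sides did not overlap, but animal 1 differed by only -0.26 and the others by -0.83 to -1.18 (-0.80 ± 0.10, adjusted p = 0.000384). Mir154 had left levels of 7.33, 7.13, 7.06, 7.30 and 6.94 and right levels of 7.59, 7.94, 7.68, 7.93 and 8.03 (-0.68 ± 0.10, adjusted p = 0.000818). Mir421 fell by 0.89 ± 0.15, with 7 of 10 arrays under the control median. The 1 microRNA gene that rose was Mir18 (0.37 ± 0.09). Of the 300 microRNA genes 172 lay below that median, and so did 16 of the 57 that fell. The count of increases was 0 in the fit of probe sets above that median. It was also 0 with all 4 groups in the fit and without animal 3, 4 or 5. On chromosome 12, 31 of the 47 microRNA genes measured fell, or 66.0%. Of these 31, 30 lie in chr12:109585789-109743496 (GRCm38.p6), where 39 microRNA genes were measured. The ends of this stretch were set by the outermost genes that fell, so 30 of 39 is not an independent share. This stretch is the imprinted cluster beside Meg3 and Rian, noncoding RNAs that also fell. Without microRNA genes, 76 of 605 genes of chromosome 12 fell, or 12.6%, and 75 rose. Of the 57 decreases 40 had 1 sign in all 5 animals. The count was 26 without animal 5, 32 without animal 2, 47 with a replicate block and 23 with the control covariate, and the difference of animal 1, the animal with the higher control level on the left, was the smallest for Mir421, Mir128-1, Mir376b, Mir541, Mir539 and Mir154. The part of the control level in these decreases was not tested.

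Of 8 markers of fibroblasts and meninges 2 fell, Slc6a13 and Slc22a6. Slc6a13, a transporter of GABA and taurine, had left levels of 8.52, 9.26, 9.31, 8.91 and 9.09 and right levels of 9.68, 10.16, 9.69, 9.77 and 9.80. The sides did not overlap (-0.80 ± 0.14, adjusted p = 0.0026), and animal 3 differed least (-0.38). The organic anion transporter Slc22a6 fell by 0.59 ± 0.08, and its relative Slc22a8 (-0.58 ± 0.10) and the transcription factor Osr1 (-0.58 ± 0.08), which are not in the list, fell too. Other meningeal markers did not pass: Dcn was at -0.40 ± 0.16, Ptgds at -0.41 ± 0.14, Col1a1 at -0.06 ± 0.09 and Col1a2 at -0.09 ± 0.08, and of 44 collagen genes 1 fell and 0 rose. The mean level of the 8 markers was 9.16 to 9.68 on the left and 9.72 to 9.97 on the right. How much meninges each hemisphere carried was not recorded in the labels, and its part in these decreases was not tested. Brinp3, a neuronal gene that acts against cell division, fell by 0.66 ± 0.05 and the heparan sulfate sulfotransferase Ndst4 by 0.57 ± 0.08, both in 5 of 5 animals.

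In some genes the difference between the sides varied widely from animal to animal. Ccn1, a matrix protein induced by YAP, had left levels of 9.51, 9.22, 11.19, 9.46 and 10.68 and right levels of 8.41, 8.29, 8.50, 8.49 and 8.46. Its left side was high in animals 3 and 5, so that the difference ranged from 0.92 to 2.68 (1.58 ± 0.32, adjusted p = 0.00611). The immediate early genes Fos and Npas4 had the same 2 animals on top, with differences of 2.44 and 2.37 for Fos and of 1.39 and 1.07 for Npas4 in animals 3 and 5, against 1.14 to 1.27 and 0.23 to 0.45 in the others. Dusp1, a phosphatase of the same response, differed by 1.05 and 0.75 in these animals and by -0.31 to 0.04 in the others, and did not pass the test (0.30 ± 0.19, adjusted p = 0.317). The wide ranges of other genes had no common sign. Slc6a3, the dopamine transporter of midbrain neurons, differed by -1.39 in animal 1 and by 0.13 in animal 4 (-0.47 ± 0.25, adjusted p = 0.218), and Pmch, a peptide of the lateral hypothalamus, by -1.26 in animal 5 and 0.15 in animal 4 (-0.44 ± 0.23, adjusted p = 0.212). Zic1 and Lhx9, which mark parts of the diencephalon, were 0.53 and 0.46 higher on the left in animal 1 and 0.71 and 0.93 lower in animal 3 (-0.01 ± 0.13 and -0.10 ± 0.15). How the hemispheres were dissected is not described in the labels, and its part in these differences was not tested.

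**Figure D5:**
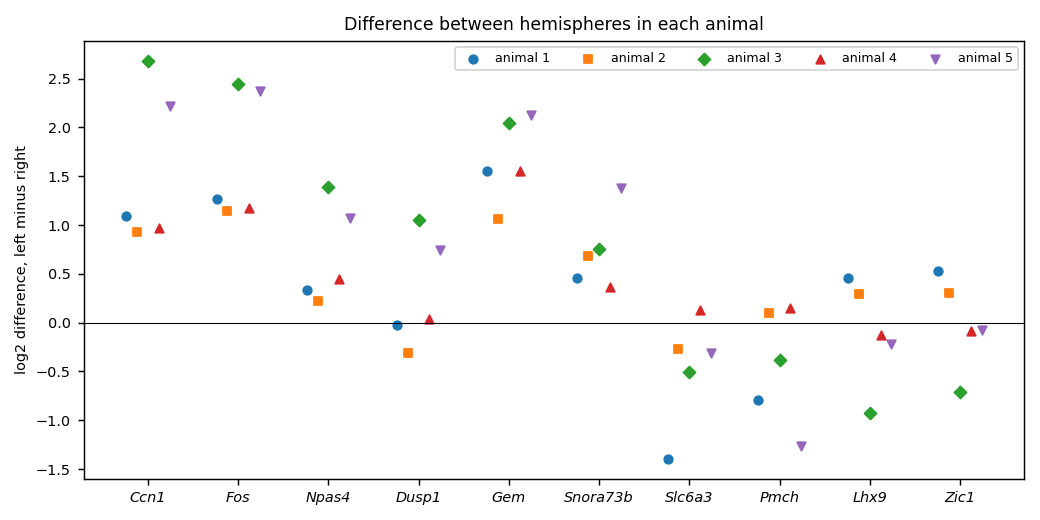
Log2 difference, left minus right, of 10 genes in each of 5 animals, each with its own symbol. Ccn1, Fos, Npas4 and Dusp1 are highest in animals 3 and 5, while Slc6a3, Pmch, Lhx9 and Zic1 lie on both sides of 0.

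Some large families held few calls or about as many as the array as a whole. Of 1027 olfactory receptor genes, 959 of which lay under the control median, 6 rose and 28 fell, which became 1 and 5 in the fit of probe sets above that median. Of 38 Hox genes, 21 of them under the control median, 0 passed the test by limma in either direction and 1 had an unadjusted p under 0.05. Zinc finger genes named Zfp were close to the background, with 33 of 347 higher and 31 lower, or 9.51% and 8.93%, and 18 and 16 without animal 5. RAB GTPases, forkhead factors and F-box genes were likewise near it, with 7.14%, 4.55% and 11.3% higher and 11.4%, 9.09% and 9.86% lower.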

How the data were processed

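RNA of 10 hemispheres, 5 injured left and 5 uninjured right, was measured on Affymetrix arrays. The deposited log2 values were made by RMA with affy 1.38.1, per the submitters' processing notes; the chip definition and background settings are not given in the sources used here. RMA sets all arrays to one distribution, so a shift common to most genes would not be seen. The 34760 probe sets hold 6573 that were treated as controls; 28187 were tested, of which 21640 have 1 gene symbol, 1321 several and 5226 none listed, and 21553 were matched to RefSeq. Left was compared with right by limma 3.58.1 in R 4.3.3 with no block, with p-values adjusted by Benjamini-Hochberg over the whole tested set and a threshold of 0.05. Where a gene had several probe sets, the one of highest mean stood for it. The fit was also run on simulated data with independent noise for each probe set and array. Such data hold no shared animal, array order or control level, so that run cannot judge their part in the calls. The members and lists were chosen with earlier results of these data known.

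The 2 arrays of a number share a specimen number and were taken as 1 animal. Their deviations from the group means correlated by 0.0585, 0.254, 0.140, 0.196 and 0.250 in animals 1 to 5. Left and right arrays of different numbers correlated by -0.222 (left 2 with right 5) to 0.215 (left 5 with right 4). The consensus estimate of limma for the correlation of the 2 arrays of an animal was 0.0931. Nothing else in the labels says whether animals were handled separately; precision is limited by having 5 arrays a side.

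Named were the 25 largest increases and decreases with 1 sign in all 5 animals outside the genes set aside, and up to 5 called members of each list in each direction. The leading member of each family, the 10 genes with the widest range over animals, and markers were named too. S1pr2, S100a6, Msn, Ezr, Vcl, Flnc, Polr1c, Rrn3, Ncl, Fbl, Snord118, Snord104, Eif4e, Tgfbr1, Egfr, Ccnl1, Ccnd1, Slc8a2, Slc8a3, Atp2b2, Atp2b3, the Slitrk, Tenm, Nlgn and Nrxn genes other than Slitrk3, Pcdhb12, Cdh9, Kcnv1, Kcna4, Kcnf1, Htr2c, Chrm1, Chrm3, St8sia4, Mir379 and Mir411 were named after their values were seen.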

Additional observations from a re-analysis of the deposited data

Results flagged for a closer look

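In 12 of 350 groups of 5 arrays, each holding one side for a gene named above, the highest or lowest array stood apart from the other 4 by Dixon's criterion, which marks about 1 group in 20 by chance. The right hemisphere of animal 3 was marked in 4 of the 12, with Eif4e at a log2 level of 10.65, Mob1b at 10.45 and Lpl at 10.31 as the highest array and Ms4a4c at 4.70 as the lowest. The right hemisphere of animal 2 was highest for Nrxn2 at 12.25 and for Slc6a13 at 10.16, and that of animal 1 was lowest for Eif4g3 at 11.47 and for Mir541 at 6.96. The right hemisphere of animal 4 was highest for Kcnf1 at 10.24. Among left hemispheres, animal 1 was lowest for Kdelr3 at 7.59, animal 2 lowest for Meg3 at 12.50 and animal 3 highest for Chil3 at 4.84.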

How the results depend on the processing

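Of 5088 probe sets past the threshold, 2597 were higher and 2491 lower in the left hemisphere; 8809 had an unadjusted p under 0.05. The count was 4778 with the replicate block, 6034 with all 4 groups in the fit, 5175 after centring, 5770 above the control median and 5725 with an intensity trend and robust variance. The control covariate left 3194, with 1631 higher and 1563 lower. Leaving out arrays or animals gave 2698 to 4909 probe sets in all, 1451 to 2560 higher and 1247 to 2399 lower; the totals were 2698 without animal 5, 2788 without animal 4 and 3325 without animal 2, the last with 1517 lower. The causes of these moves were not tested, except that fits without an animal hold 8 arrays. Centring gave 1740 genes higher and 2404 lower, in place of 2086 and 2005, and moved the median of all probe sets by -0.03 in place of -0.01. Of 160 called genes named above, 130 were called in all 21 alternatives and none changed sign; the replicate block ended 10 calls and the control covariate 24. Genes not past the test changed sign in some alternatives: with the covariate, Zic1 was at 0.13 and Lhx9 at 0.0396; without single arrays or animals Zic1 ran from -0.14 to 0.17 and Lhx9 from -0.25 to 0.10, and Slitrk6 from -0.35 to 0.0285 (without animals 2 and 3). A fold of at least 1.2 moved 39 of 58 list counts by over 1.5 times, and the probe set with the largest variance moved 1. In a fit of all probe sets, 350 of the 6573 controls passed the threshold.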
